A study of Ovis aries and Bos taurus with 6 samples.

Results

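The miR-30 family was followed through the small RNA of milk extracellular vesicles (EVs), which are small lipid-bound particles released by cells with RNA inside. Its members were the rows of the deposited counts tables named miR-30a, miR-30b, miR-30c, miR-30d or miR-30e, with 5p and 3p arms kept apart. In the sheep table, rows without a miRBase name were added where bases 2 to 8 of their listed sequence equalled those of oar-miR-30d. This gave 7 of 685 rows in sheep, 5 named and 2 without a name, and 5 of 779 rows in cow, all named. The sheep group was milk of 3 Ordos fine wool sheep and the cow group milk of Holstein cows (3 libraries). All animals were female and in mid lactation, and the labels name no treatment or altered gene in either group. EVs were isolated by a precipitation kit for body fluids, which does not sort vesicles by the cell of origin. The cow libraries came from an earlier study of the same group, so an effect of the species, of the breed and of the study in which libraries were made cannot be told apart. For the cow libraries nothing states that they came from separate animals, and p-values measure only the spread between libraries.

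miRNAs of one family share the seed, bases 2 to 8 of the mature strand, which pairs with target mRNAs, and members with one seed are predicted to bind largely the same targets. The miR-30 family is known from epithelial tissues, where it restrains the change of epithelial into mesenchymal cells, and from fat cell differentiation and autophagy. In the mammary gland, forced expression of miR-30b in mice is known to impair lactation. A hairpin precursor gives a 5p and a 3p strand, and in this family the 5p strand carries the shared seed.

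The 6 sheep rows of the 5p strand are shown because the results turn on how they differ in their middle bases and at their 3′ end. They are the listed sequences, 5′ to 3′, written as DNA, with the seed in capitals.
oar-miR-30a-5p: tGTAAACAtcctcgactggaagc
oar-miR-30b: tGTAAACAtcctacactcagc
oar-miR-30c: tGTAAACAtcctacactctca
oar-miR-30d: tGTAAACAtccccgactgg
novel6_star: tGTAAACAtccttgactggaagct
novel20_mature: tGTAAACAccctacactctcagct
All 6 start at the same base, and the seed occurred in no other sheep row at any position. Positions are counted from 1 at the 5′ end, and rows were compared base by base without gaps. oar-miR-30d differed from oar-miR-30a-5p by T12C over the 19 bases that both list. The row novel6_star differed from oar-miR-30a-5p by C13T over 23 bases and is called here the unnamed row near miR-30a. Its letters are those known for miR-30e, which the sheep table does not name. The row novel20_mature differed from oar-miR-30c by T9C over 21 bases and is called the unnamed row near miR-30c. An inner gap in oar-miR-30b would give another reading, so its shorter length need not lie at the 3′ end. Compared without gaps, oar-miR-30b and oar-miR-30c differed only in their last bases (A19T, G20C and C21A). A read that ends before base 19 holds no base that tells these 2 rows apart. How such reads were counted is not stated in any source used here. The cow table lists no sequences. It also names bta-miR-30f, which the family rule does not include and which had 176, 91 and 64 counts in cow replicates 1, 2 and 3. No sequence table of mature miRNAs was used here, so the cow row that corresponds to the unnamed row near miR-30c is not known, and values are given for both miR-30f and miR-30c.

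Among the RefSeq sheep genes of assembly ARS-UI_Ramb_v3.0, 4 miR-30 precursors were matched by name. MIR30B and MIR30D are next to each other, and MIR30B lies over the uncharacterised gene LOC114116349. MIR30C overlaps NFYC, which encodes a subunit of a CCAAT-binding transcription factor. MIR30A overlaps the uncharacterised gene LOC114116445, with OGFRL1 as the next gene after it. No source used here gives the build behind the deposited tables, and no coordinates are printed.

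The libraries held 1073914 to 2078695 miRNA counts in sheep and 328527 to 556489 in cow. miR-148a was the largest row in each sheep library (19.6% to 63.6% of counts), and a row without a name was the largest in each cow library (51.2% to 68.9%). CPM values are counts scaled to a common total of miRNA counts per library and move with these rows. Sheep replicate 1 stood apart. In it, 3 rows without a name each exceeded 1% of counts and 10 times their level in both other sheep libraries, and together they took 17.3% of its counts. Of 8 miRNA markers of mammary epithelium, 3 were found by name in sheep (summed 201427, 637886 and 383650 CPM) and 8 in cow (1207 to 2432 CPM). miR-148a alone gave 195857, 636087 and 379859 CPM of the sheep sums. Of 4 red blood cell markers, 3 were named in cow (15303 to 27558 CPM) and none in sheep. Of 7 leukocyte markers, 1 was named in sheep, at 637 CPM in replicate 1 against 30.8 and 36.3, and 7 in cow (4904 to 9179 CPM). Of 4 stroma markers, 2 were named in sheep (7081, 1678 and 2321 CPM) and 4 in cow (557, 1017 and 1284 CPM), and every sheep sum lay above every cow sum. The endothelium marker (1728 to 2785 CPM), the liver marker (320 to 1014 CPM) and 4 striated muscle markers (0 to 33.5 CPM) were named in cow and none of them in sheep. The part of these differences in the results below was not tested, and values without single libraries are given where a call or a value moves. In such bulk libraries, fewer vesicles of one cell type and less of a miRNA per vesicle cannot be told apart.

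The sheep family was led by the 2 unnamed rows and miR-30a-5p, while miR-30d led in cow. The unnamed row near miR-30c had 7621, 6093 and 4483 counts in sheep replicates 1, 2 and 3, or 36.9%, 35.4% and 37.4% of the 5p family counts (mean 36.6% ± 1.07, SD, n = 3). The unnamed row near miR-30a had 6481, 5702 and 4675 counts (34.5% ± 4.01). The first of them kept nearly the same share in all sheep libraries, and the second was highest in replicate 3, at 39.0%. oar-miR-30a-5p, whose human form is known to act on the autophagy gene BECN1, had 5061, 4807 and 2224 counts (23.7% ± 4.73), and was lowest in replicate 3. oar-miR-30d had 869, 281 and 390 counts (3.03% ± 1.30) and oar-miR-30c 599, 303 and 203 (2.12% ± 0.679), both highest in replicate 1. oar-miR-30b was nearly missing, with 12, 43 and 4 counts. Its shares were 0.0581% (95% Wilson interval 0.0333 to 0.102), 0.250% (0.185 to 0.336) and 0.0334% (0.0130 to 0.0858), so replicate 2 lay above the others beyond counting error.

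In cow, bta-miR-30d, known as a miRNA that the uterine lining secretes in vesicles, had 1645, 4866 and 1215 counts. It took 54.3%, 53.5% and 54.2% of the family counts (54.0% ± 0.428, SD, n = 3). bta-miR-30e-5p had 564, 1849 and 468 counts (19.9% ± 1.18). These 2 shares were close to constant across the cow libraries, although replicate 2 held far more family counts than the others (9091 against 3029 and 2241). bta-miR-30b-5p had 374, 1621 and 221 counts (13.3% ± 4.08) and bta-miR-30c 98, 395 and 62 (3.45% ± 0.811), both highest in replicate 2. bta-miR-30a-5p moved the other way, with 348, 360 and 275 counts and shares of 11.5%, 3.96% and 12.3%. The names miR-30c and miR-30d carry no arm in the cow table and are taken here as the 5p strand.

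**Figure D1:**
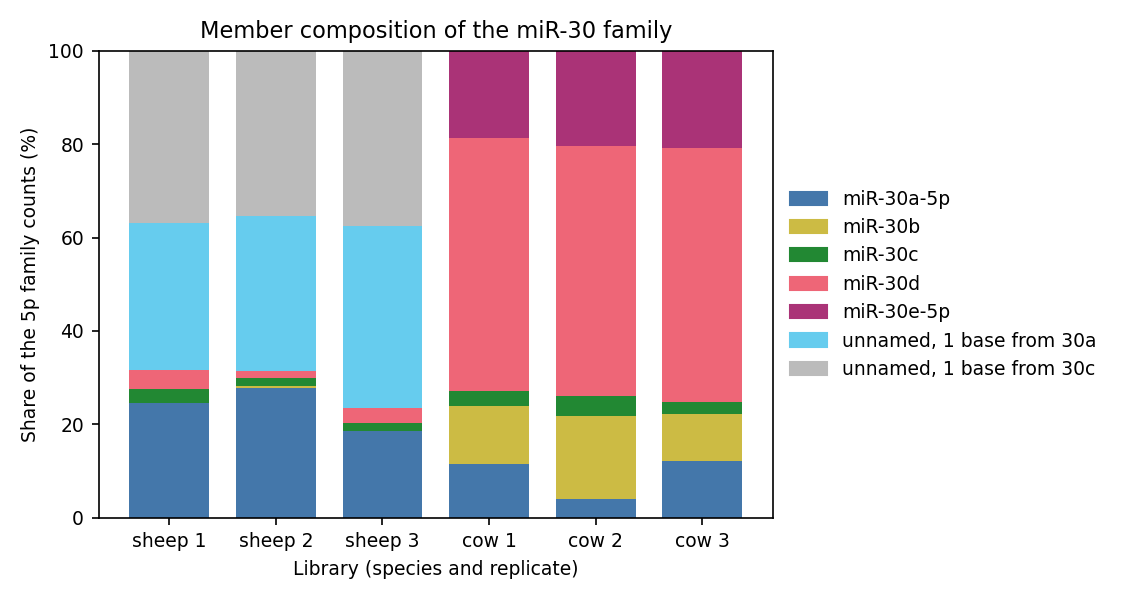
Share of the 5p family counts (%) taken by each member row in each of the 6 libraries, as stacked bars that sum to 100. The 2 unnamed rows and miR-30a-5p fill most of each sheep bar, and miR-30d takes 53.5% to 54.3% of each cow bar.

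The composition of the sheep family depends on the unnamed rows. With the 4 named 5p rows alone, oar-miR-30a-5p took 77.4%, 88.5% and 78.8% (81.6% ± 6.02), oar-miR-30d 10.8% ± 4.85, oar-miR-30c 7.31% ± 1.79 and oar-miR-30b 0.372% ± 0.363. Over the same 4 names in cow, miR-30d took 67.5% ± 0.932, miR-30b 16.7% ± 5.13, miR-30a-5p 11.5% ± 5.73 and miR-30c 4.31% ± 1.02. So over names that both tables hold, miR-30a-5p led in each sheep library and miR-30d in each cow library.

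In sheep the 5p family rows listed with 23 or 24 bases held nearly all of the family's 5p counts. The 3 rows of 23 to 24 bases took 92.8%, 96.4% and 95.0% of the 5p counts in replicates 1, 2 and 3 (94.7% ± 1.78, SD, n = 3). They held 12092 to 18197 counts each over the 3 libraries, against 59 to 1540 for each of the 3 rows of 19 to 21 bases. Every row of the long class lay above every row of the short class in each of the 3 libraries. Within the short class the order did not follow length. oar-miR-30d, listed with 19 bases, had 1540 counts, and oar-miR-30c and oar-miR-30b, both listed with 21 bases, had 1105 and 59. Across the 6 rows, Spearman's rho between listed length and mean CPM was 0.794, from 6 points that share their libraries. 2 pairs of rows differ by 1 base and fall in different length classes. The 24-base row near miR-30c had 12.7, 20.1 and 22.1 times the counts of the 21-base oar-miR-30c, and the 19-base oar-miR-30d had 0.172, 0.0585 and 0.175 times those of the 23-base oar-miR-30a-5p. In each library the longer row of the pair was the higher. Both pairs differ in a base as well as in length, so the part of each cannot be told apart.

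Set against the whole sheep table, the family rows stood high for their length, apart from miR-30b. Over all 685 rows, rho between listed length and mean CPM was 0.221, and over the 84 named rows it was -0.051. The median row of 19, 21, 23 and 24 bases lay at 9.99, 14.2, 43.2 and 99.6 mean CPM. Of the 685 rows, 601 have no name, so the ranks below are mostly against such rows. The median named row of 21 and of 23 bases lay at 76.0 and 159 mean CPM. The unnamed rows near miR-30c and miR-30a ranked 1 and 2 of the 25 rows of 24 bases, with 4656 ± 2009 and 4311 ± 1547 CPM (SD, n = 3). oar-miR-30d ranked 4 of 67 rows of 19 bases (427 ± 328 CPM) and was the only named row of that length. oar-miR-30a-5p ranked 11 of 87 rows of 23 bases (2980 ± 1371 CPM) and oar-miR-30c 29 of 138 rows of 21 bases (291 ± 216 CPM). oar-miR-30b ranked 74 of those 138 (11.7 ± 8.52 CPM). No source used here states how reads longer or shorter than a listed sequence were counted.

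**Figure D2:**
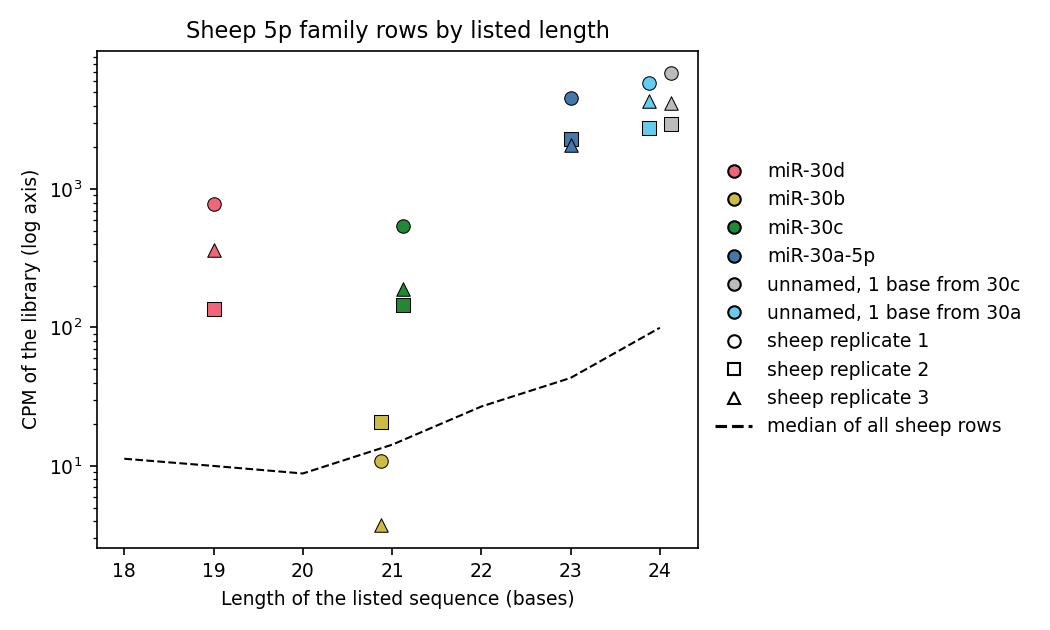
CPM of each sheep 5p family row (log axis) against the length of its listed sequence in bases, with 1 point per library and small sideways shifts where lengths coincide. The dashed line joins the medians of all sheep rows by length; the rows of 23 and 24 bases lie above all shorter family rows in each library.

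The only 3p member was oar-miR-30a-3p. Its listed sequence starts cTTTCAGT, so its seed, in capitals, is not that of the 5p strand. It had 2300, 3033 and 1456 counts in sheep replicates 1, 2 and 3. The 3p share of all miR-30a counts was 31.2% in replicate 1, with a Wilson interval from 30.2 to 32.3, 38.7% in replicate 2 (37.6 to 39.8) and 39.6% in replicate 3 (38.0 to 41.2), with a mean of 36.5% ± 4.57 (SD, n = 3). The 5p strand led in each library, by 2.20, 1.58 and 1.53 times. Replicate 1 lay below the others beyond counting error. No 3p row of the family was among the named cow rows.

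As a share of all miRNA counts the family's values in the 2 species overlapped. In sheep the 7 rows took 2.07%, 0.975% and 1.25% (1.43% ± 0.567, SD, n = 3), with replicate 1 highest. In cow the 5 rows took 0.922%, 1.63% and 0.578% (1.04% ± 0.538), with replicate 2 highest, so the groups overlapped. The order turned with the denominator and with the rows counted. Without the largest row of each library the shares were 2.42% ± 0.354 in sheep and 2.48% ± 0.771 in cow, again with overlap. Set against the summed counts of the 42 names found in both tables, all family rows gave 3.16% ± 2.39 in sheep and 8.49% ± 0.932 in cow. The groups did not overlap, but this is no share of those names. Only 3 members are among them, and the other family rows count in the numerator alone. The authors divided counts by a constant to give their TPM values, and it differs from the table's total. Of that constant the family rows made 0.149% ± 0.0762 in sheep and 0.0378% ± 0.0299 in cow, with sheep higher and no overlap. With named rows alone, the sheep rows made 0.0570% of that constant, and the groups overlapped. Without the largest row of each library, the named sheep rows took 0.917%, and every sheep value lay below every cow value.

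Ratios within a library do not move with the denominator, and they put the members in another order in each species. The ratio of miR-30d to miR-30a-5p, 0.0585 to 0.175 in sheep, was 4.73, 13.5 and 4.42 in cow replicates 1, 2 and 3. The mean log2 ratios were -3.05 ± 0.91 and 2.71 ± 0.90 (SD, n = 3 each), a difference of -5.76. miR-30b to miR-30a-5p was 0.00237, 0.00895 and 0.00180 in sheep and 1.07, 4.50 and 0.804 in cow. miR-30c to miR-30a-5p was 0.118, 0.0630 and 0.0913 in sheep and 0.282, 1.10 and 0.225 in cow. For these 3 members every cow ratio lay above every sheep ratio. They are also the 3 sheep 5p rows listed with 19 to 21 bases, while oar-miR-30a-5p is listed with 23. No lengths are listed for cow, so the part of the species and that of the listed length cannot be told apart. With the unnamed row near miR-30c added to sheep miR-30c, the ratio in sheep became 1.62, 1.33 and 2.11, and every sheep ratio lay above every cow ratio. Set against bta-miR-30f in its place, that row alone gave 1.51, 1.27 and 2.02 in sheep against 0.506, 0.253 and 0.233 in cow. The unnamed row near miR-30a gave 1.28, 1.19 and 2.10 against 1.62, 5.14 and 1.70 for bta-miR-30e-5p, and the groups overlapped.

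Of the 5 other members, counting miR-30f and the unnamed rows, 4 had ratios to miR-30a-5p that did not overlap between species. Of these, 3 were higher in cow and 1 in sheep. Over the 55 names joined in this way, the members among them, 52.7% did not overlap (34.5% higher in cow and 18.2% in sheep), which is the background for a count over so few members. The neighbours miR-30b and miR-30d also differed in their ratio, at 0.0138, 0.153 and 0.0103 in sheep and 0.227, 0.333 and 0.182 in cow. The ratio of miR-30b to miR-30c was 3.82, 4.10 and 3.56 in cow, almost the same in each library, and 0.0200, 0.142 and 0.0197 in sheep.

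**Figure D3:**
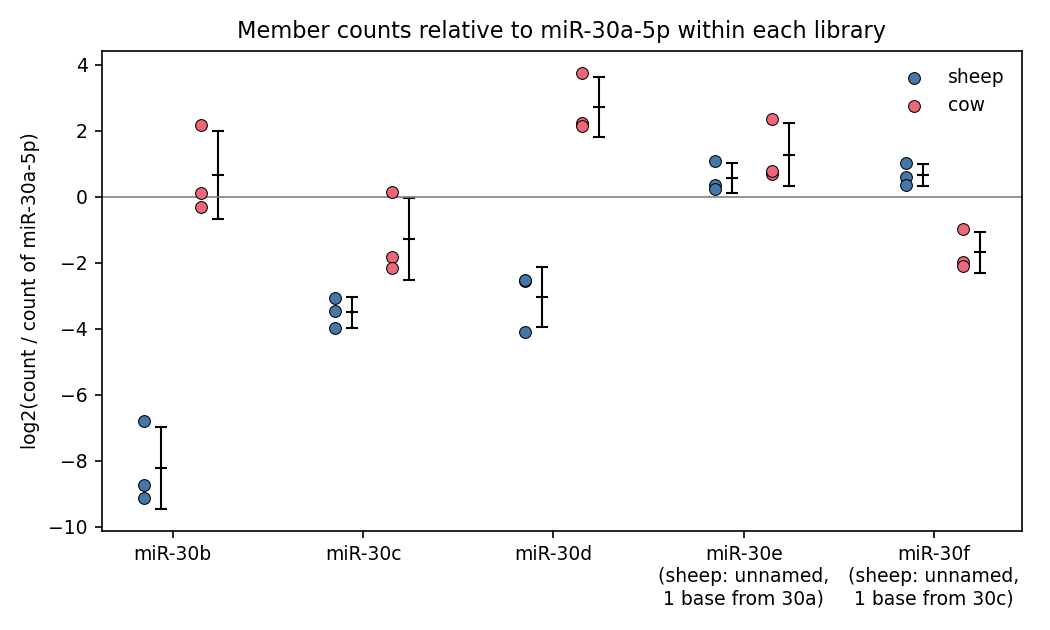
log2 ratio of each member's count to that of miR-30a-5p in the same library, with 1 point per library and the mean ± SD (n = 3) beside the points, for sheep and cow. miR-30b, miR-30c and miR-30d lie higher in all cow libraries, the unnamed row near miR-30c lies higher in all sheep libraries, and the miR-30e values overlap.

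In the test over all names found in both tables, miR-30d was lower in sheep, miR-30a-5p was higher in sheep by a smaller amount that depended on the settings, and miR-30c did not pass. Counts were tested with edgeR's quasi-likelihood test, with trimmed mean of M-values (TMM) factors and Benjamini-Hochberg adjustment over the 38 names that passed the filter on low counts. All 3 members found in both tables passed that filter, and 2 of 3 were called at an adjusted p under 0.05. Of all 38 names 52.6% were called, 28.9% as higher in sheep and 23.7% as higher in cow, so the share of members called is near that of all names. miR-30d had 782, 135 and 363 CPM in sheep replicates 1, 2 and 3 and 5007, 8744 and 3134 CPM in cow. Every sheep value lay below every cow value, and the log2 fold change, sheep over cow, was -4.26 ± 0.63 (SE, adjusted p = 1.85e-09, edgeR). miR-30a-5p had 4557, 2313 and 2071 CPM in sheep and 1059, 647 and 709 CPM in cow. Every sheep value lay above every cow value, with a log2 fold change of 1.51 ± 0.57 (adjusted p = 0.0194, edgeR). miR-30c, whose human form is known to act on the microsomal triglyceride transfer protein, had 539, 146 and 189 CPM in sheep and 298, 710 and 160 CPM in cow, which overlapped. It was at -0.83 ± 0.80 (adjusted p = 0.363, edgeR), and an interval of 2 SE to either side runs from -2.43 to 0.76 and so covers differences in either direction. CPM did not overlap for 2 of these 3 members, against 50.0% of the 42 names. oar-miR-30a-3p had no cow row to be tested against. The part of the listed length of the sheep rows in these fold changes was not tested.

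The call of miR-30d was kept in each of 18 other settings and joins, with fold changes from -5.49 without normalization factors to -1.98 on log2(TPM + 10) and -3.38 without cow replicate 2. Within the 3 other joins it ended on log2(TPM + 10) (adjusted p from 0.0603 to 0.0642, limma). The call of miR-30a-5p ended in 7 of 18, among them upper-quartile factors (1.15, adjusted p = 0.0569 in edgeR), sheep replicate 2 left out (1.13) and no normalization factors, where it was at -0.19. Without factors the fold changes of the 38 names moved by a median of -1.75, and relative to the median of all names miR-30a-5p was at 1.09 with TMM and 1.12 to 2.18 in the other scalings, filters and tests, but 0.66 without sheep replicate 2. With TMM, 11 names were called for sheep and 9 for cow. The split was 5 to 13 without factors, 7 to 10 with upper-quartile factors, 20 to 5 in limma on log2(TPM + 1) and 16 to 4 on log2(TPM + 10).

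miR-30b carries an arm suffix in cow alone and could be compared once such suffixes were dropped, which joined 54 names. It had 10.8, 20.7 and 3.72 CPM in sheep and 1138, 2913 and 570 CPM in cow. Every sheep value lay far below every cow value, and the log2 fold change was -7.66 ± 1.136 (SE, adjusted p = 0.000152, edgeR), the farthest from 0 among the members. Of the 47 names tested 46.8% were called, 25.5% as higher in cow, and of the 4 members 2 were called, both as higher in cow. A count of 0 would allow up to 1.44 to 2.79 CPM in a sheep library, so replicate 3 was close to that limit, while replicates 1 and 2 lay above it. The call was kept in each of 15 other settings, from -9.02 without normalization factors to -2.22 on log2(TPM + 10). Without cow replicate 2 it was -6.02, without sheep replicate 1 -6.38 and without sheep replicate 2 -8.995. The part of the listed length of oar-miR-30b in this fold change was not tested. In this join miR-30d was at -4.76 ± 0.69 (adjusted p = 0.000143, edgeR) and miR-30a-5p at 1.16 ± 0.48 (adjusted p = 0.0617, edgeR), no longer past the threshold.

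The unnamed sheep rows were compared last, in joins that were chosen after their sequences had been seen. The unnamed row near miR-30a had 5835, 2743 and 4353 CPM in sheep, against 1717, 3323 and 1207 CPM for bta-miR-30e-5p, with overlap. edgeR put it at 0.10 ± 0.52 (adjusted p = 0.884), and an interval of 2 SE to either side runs from -0.94 to 1.144. It passed as higher in sheep without cow replicate 2 (1.00, adjusted p = 0.0304, edgeR) and on log2(TPM + 1) and log2(TPM + 10) (2.71 and 2.53, adjusted p = 0.00228 and 0.0130, limma). The unnamed row near miR-30c had 6862, 2931 and 4174 CPM in sheep, against 536, 164 and 165 CPM for bta-miR-30f. It was at 3.36 ± 0.50 (adjusted p = 9.05e-05, edgeR), and the call ended without normalization factors (1.95, adjusted p = 0.0536, edgeR). In this join 3 of 6 members were called, 2 higher in cow and 1 in sheep, against 49.0% of the 49 names tested (26.5% higher in cow and 22.4% in sheep). Added to oar-miR-30c and set against bta-miR-30c instead, it gave 2.65 ± 0.67 (adjusted p = 0.00418, edgeR), 3.89 without cow replicate 2, and 1.84 without normalization factors, no longer past the threshold. There 3 of 5 members were called, against 50.0% of the 48 names tested. miR-30c alone did not pass in that first join (-1.49 ± 0.86, adjusted p = 0.156, edgeR), so its direction and call changed with the place given to this row.

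**Figure D4:**
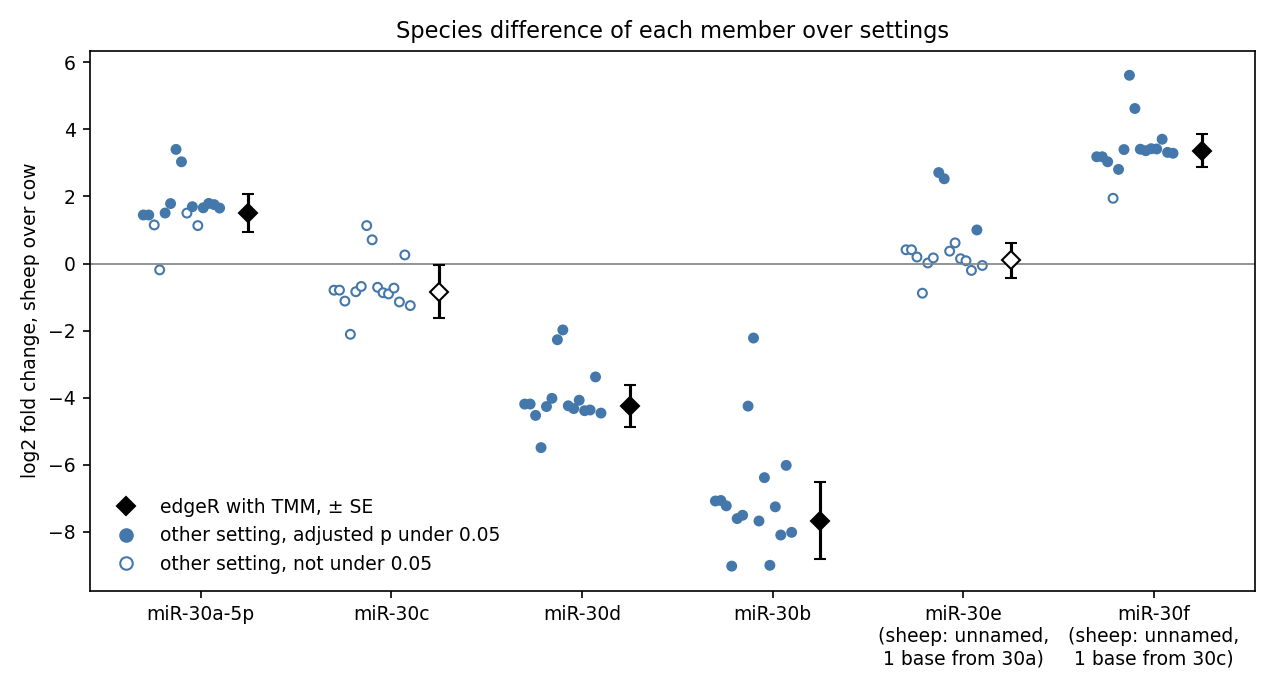
log2 fold change of each member, sheep over cow, with edgeR and TMM factors (diamond, ± SE) and in 15 other settings of the same join (circles, filled where the adjusted p is under 0.05). All values of miR-30d and miR-30b lie below 0, those of the unnamed row near miR-30c set against miR-30f lie above 0, and those of miR-30a-5p, miR-30c and miR-30e fall on either side.

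In the list of other miRNAs known to hold cells in the epithelial state (miR-200a, miR-200b, miR-200c, miR-141, miR-429 and miR-205), 2 of 6 were named in both tables, and both, miR-200b and miR-200c, were called higher in sheep in edgeR, against 28.9% of the 38 names tested. In cow replicates 1, 2 and 3, miR-200b had 0, 1.80 and 0 CPM and miR-200c 21.3, 3.59 and 43.8 CPM. A count of 0 would allow up to 5.39 to 9.13 CPM there, so both calls rest on cow rows that are low or absent. Higher in sheep is also the direction of miR-30a-5p and of the unnamed row near miR-30c, and opposite to that of miR-30d and miR-30b. Outside the family, the names whose pattern over the 6 libraries was nearest to that of miR-30d were miR-191, miR-22-3p and miR-374b. Their Euclidean distances in centred log2(CPM + 1), with CPM relative to the shared names, were 1.05, 1.59 and 2.63. miR-30d was taken for this because, of the 3 members found under the same name in both tables, it had the highest mean CPM over the 6 libraries.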

How the data were processed

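Small RNA libraries of milk EVs (3 sheep, 3 cow) were prepared by adapter ligation and PCR (TruSeq, Illumina), per the labels' protocols. These steps favour some miRNAs, so counts are not numbers of molecules. The authors deposited whole-number read counts per miRNA row, 1 table per species. The tools named are cutadapt 1.14 and Bowtie, per the submitters' processing notes. No source used here names the counting tool, miRBase release or genome build. Each deposited TPM value is its count over a constant of that library, without correction for length. In the deposited sheep table the listed length, read here as a score, equals the number of letters of the listed sequence in each row. No library pair held identical values.

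Names were joined after removing the species prefix (42 shared names). Tests used edgeR 4.0.16 (TMM, library sizes summed over joined names, default filterByExpr), with Benjamini-Hochberg adjustment over all names tested, a threshold of 0.05, and SE derived from the F statistic. The test was checked on simulated counts in which as many names were raised as lowered. TMM factors of the measured libraries ran from 0.200 (sheep replicate 2) to 2.47 (cow replicate 3), a setting which that check did not cover. Alternatives were DESeq2 1.42.0, other factors, library sizes and filters, limma 3.58.1 on log2(TPM + 1) and log2(TPM + 10), other joins, a block for replicate number, and fits without each library. Shares and ratios carry no test. Wilson intervals (95%) and floors of 3 counts cover counting error only; their largest half-width was 0.0248 percentage points for shares of a library and 2.07 for shares of the family. Every family row of at least 10 mean CPM was named, which took in all 12 rows, and outside the family the 3 names of nearest pattern and up to 2 of each list. The members, lists and tests were chosen with earlier results of these data known.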

Additional observations from a re-analysis of the deposited data

How the results depend on the processing

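The number of names called in edgeR (20) stayed between 14 (replicate block) and 25 (limma on log2(TPM + 1)), and between 17 and 23 with 1 library left out. The replicate block was entered although same-numbered libraries did not all deviate together (correlations -0.090, 0.208 and 0.107 over 38 names). Sheep replicate 1 was closest to cow replicate 2 (0.130) and sheep replicate 3 to cow replicate 1 (0.380). Sheep replicate 2 was closest to cow replicate 2. The block ended the call of miR-30a-5p (1.504, adjusted p = 0.0971, edgeR) and changed no other call of a member. Values turned in sign without normalization factors for miR-30a-5p (-0.19) and miR-30e (-0.88). They also turned for miR-30c with log2(TPM + 1) (1.13), log2(TPM + 10) (0.71) and without cow replicate 2 (0.26), and for miR-30e without cow replicates 1 (-0.21) and 3 (-0.057), none past the threshold; the cause was not tested. With 1 library left out miR-30a-5p ran from 1.13 to 1.79, miR-30c from -1.25 to 0.26, miR-30d from -4.46 to -3.38, miR-30b from -8.995 to -6.02 and miR-30e from -0.21 to 1.00.

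Counting both strands lowered the sheep shares of the unnamed rows near miR-30c and miR-30a to 32.2% and 30.4%, and with named rows alone miR-30a-5p and miR-30d rose to 81.6% and 10.8%, since the denominator changes. Counting bta-miR-30f set miR-30d to 52.3% in cow. The family's share was 0.534% in sheep with named rows alone. With shared names, the TPM constant and the table without its largest row as denominators it was 3.16%, 0.149% and 2.42% in sheep and 8.49%, 0.0378% and 2.48% in cow. With 1 library left out it ran from 1.11% to 1.66% in sheep and from 0.750% to 1.28% in cow. The share in rows of 23 to 24 bases did not move with a minimum of 10 counts, which all 6 rows reached. The join by RefSeq mature sequence was not run, as no such table was used here. Depth limits miR-30b in sheep most, with 4 to 43 counts.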

Other observations

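3 further sheep rows without a name resemble or pair with family members on the 3p side and fall outside the family rule. The 2 of them shown differ from miR-30a-3p at 1 base, in capitals, over the bases compared, 5′ to 3′, written as DNA.
oar-miR-30a-3p: ctttcagtcggatgtttGcag
novel396_mature: ctttcagtcggatgtttAc
novel6_mature: tttcagtcggatgtttAcag
Counted from the 5′ end of miR-30a-3p, both unnamed rows carry G18A. The row of 19 bases had 512, 374 and 75 counts in sheep replicates 1, 2 and 3. The row of 20 bases, which starts 1 base later and carries the number of the unnamed 5p row near miR-30a, had 18, 5 and 6. The counts of these rows fell short of the 2300, 3033 and 1456 of miR-30a-3p in each library, while the unnamed 5p row near miR-30a exceeded miR-30a-5p in each. The star row that carries the number of the unnamed row near miR-30c (22 bases) had 33, 89 and 109 counts against 7621, 6093 and 4483.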
